A study of Danio rerio with 12 samples.

Results

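The aryl hydrocarbon (Ah) receptor is a ligand-activated transcription factor of the bHLH-PAS family. Without ligand it waits in the cytosol bound to Hsp90. With a ligand such as a polycyclic aromatic hydrocarbon it enters the nucleus, pairs with an Arnt protein and switches on target genes. Among those targets are its own brakes, the Ah receptor repressors and the ADP-ribosyltransferase Tiparp. Zebrafish carry several receptor genes, of which ahr2 is the one known to mediate dioxin toxicity in this species. Described here are the receptor genes ahr1a, ahr1b and ahr2, the partner genes arnt and arnt2, and the feedback genes ahrra, ahrrb and tiparp.

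These 8 genes were found by their symbols in the authors' deposited table, in all transcript classes. They make up 12 of its 35497 entries, under 11 gene identifiers. An entry is a transcript class of a gene identifier. Of the 12 entries, 8 averaged at least 1 CPM, a read count normalised to library size, and were tested. These cover 6 of the genes, since ahr1a and ahrrb averaged less than that under every identifier.

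RNA came from whole zebrafish (Danio rerio) bodies after 48 h. The treatments were benzo[a]pyrene (B[a]P, written BaP here, a polycyclic aromatic hydrocarbon), the anti-inflammatory drug diclofenac, and both compounds together (the mixture). The remaining group is labelled Control. Each of the 4 groups had 3 libraries, described in the labels as independent replicates, 12 in all. The sources used here do not give doses, strain, age of the fish or whether animals were pooled. The labels state 40000000 to 80000000 reads per library, each of 150 bp. For each treatment the table holds a log2 fold change over Control, its likelihood ratio and its p-value, and replicates are already combined in it. No value of a single library was used, so no SD is given, and the depth behind each value is unknown from the table. The 3 comparisons share the Control libraries. One defining marker for each of 11 tissues, from skin krt4 to exocrine pancreas prss1, averaged at least 1 CPM.

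The 21622 entries of at least 1 CPM were tested together, and a call needs a p below 0.05 after Benjamini-Hochberg adjustment over them. Standard errors (SE) and 95% intervals are those implied by the deposited fold change and likelihood ratio. Where a level in CPM is given for a group, it is the level implied by the authors' average and fold changes, with no error of its own. CPM are not corrected for transcript length, so levels are compared between groups and not between genes.

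BaP alone called 1 of the 8 tested entries, the repressor gene ahrra, which rose. Of the 21622 entries of the table that averaged at least 1 CPM, 0.148% were called with BaP. Diclofenac alone called 0 of the 8 by the likelihood ratio test, with 1 at an unadjusted p under 0.05, against 16.2% of those 21622 tested entries called. The mixture called 3 of the 8, with ahrra and tiparp higher and ahr1b lower, against 14.8% of all tested entries. With so few members, the count for diclofenac is not a result about the group. 

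**Figure D1:**
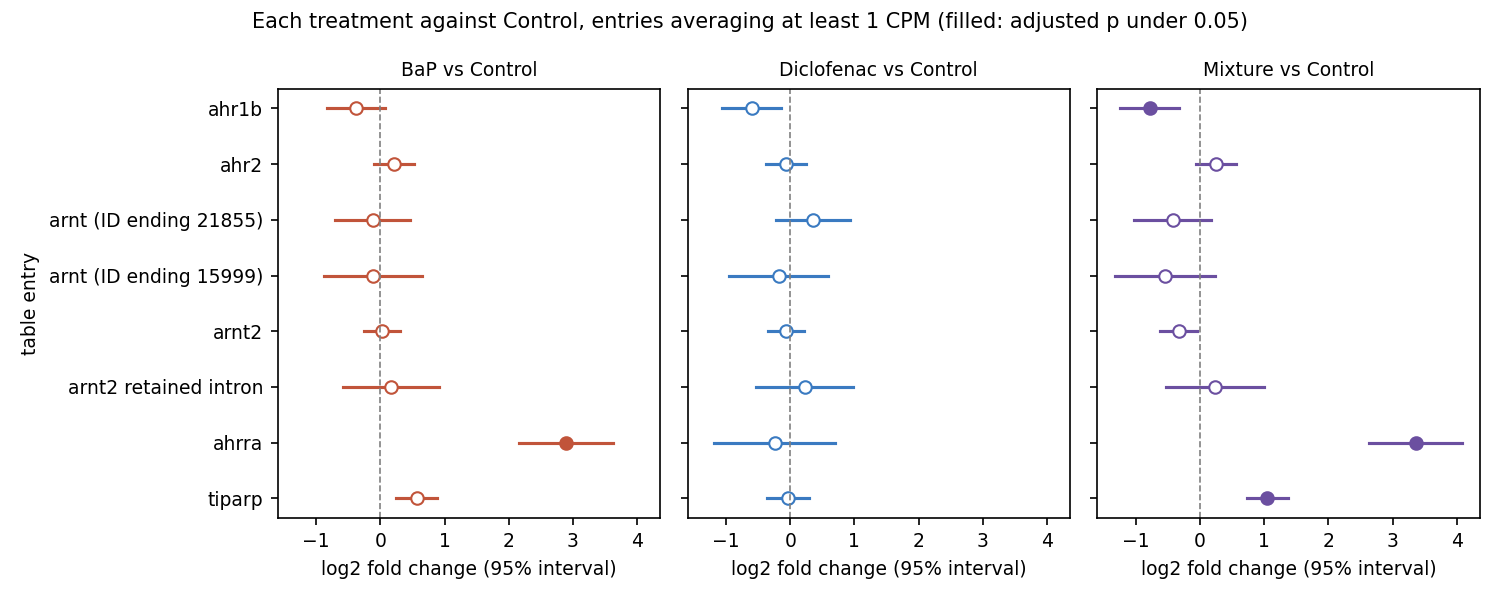
The log2 fold change (x axis) of each tested entry (rows) in BaP, diclofenac and mixture libraries against Control, with its 95% interval; filled points passed the test. The repressor gene ahrra lies at 2.89 with BaP and 3.36 with the mixture, and the interval of ahr2 spans 0 in all 3 panels.

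The receptors come first. The gene ahr2 (ENSDARG00000021833) had implied levels of 102 CPM with BaP, 84.3 with diclofenac, 104 with the mixture and 88.0 in Control. It passed no test, and its 95% intervals span 0 with all 3 treatments, although its levels with BaP and with the mixture stood above Control. In the authors' deposited table its log2 fold change was 0.21 with BaP (95% interval -0.10 to 0.52), -0.06 with diclofenac (-0.37 to 0.25) and 0.25 with the mixture (-0.06 to 0.55). The adjusted p-values of the likelihood ratio test were 1, 0.856 and 0.325. The intervals leave room for a rise of ahr2 of up to 1.43-fold with BaP and 1.47-fold with the mixture, and larger rises lie outside them.

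The gene ahr1b (ENSDARG00000023537) encodes another of the receptors. Its implied level was 15.0 CPM with BaP, 12.9 with diclofenac, 11.3 with the mixture and 19.5 in Control, so each treated group lay under Control. Only the mixture passed the test among the 3. There ahr1b fell, with a log2 fold change of -0.78 in the authors' deposited table (SE 0.23, 95% interval -1.24 to -0.33, adjusted p = 0.00913, likelihood ratio test), a level 0.580 times that of Control. With diclofenac alone the log2 fold change in the authors' deposited table was -0.60 (SE 0.23) and missed the threshold (adjusted p = 0.0579). With BaP alone it was -0.38 (SE 0.23, adjusted p = 1) in the authors' deposited table.

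No difference between the 3 treatments in ahr1b passed the approximate Wald test. The mixture differed from BaP by -0.41 (95% interval -0.87 to 0.05, adjusted p = 0.248) and from diclofenac by -0.18 (-0.64 to 0.27, adjusted p = 0.927), and diclofenac differed from BaP by -0.22 (-0.68 to 0.23, adjusted p = 0.564). The call for the mixture therefore does not set it apart from either compound alone. Stricter Benjamini-Yekutieli adjustment also ended that call (adjusted p = 0.0964), and with a filter of 5 CPM the diclofenac value passed (adjusted p = 0.0498). In RNA from whole bodies, fewer cells of a type and less RNA per cell cannot be told apart. Of the 11 tissue markers, the mixture lowered 3, namely the lens gene cryaa, the rod photoreceptor gene rho and the cartilage gene col2a1a. Their log2 fold changes were -1.25, -1.40 and -1.03. It raised 1, the intestinal gene fabp2, at 1.36. Over the whole marker list the values ran between -1.69 and 1.36 with the mixture. With diclofenac they ran between -2.19 and 0.78, with 2 markers called higher and 3 lower, and with BaP between -0.82 and 0.54, with 0 called. Their part in the ahr1b result was not tested.

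The genes ahr1b and ahr2 are next to each other among protein-coding genes of the RefSeq table (assembly GRCz12tu, used for gene order only). In the mixture these neighbours had fold changes of opposite sign, -0.78 for ahr1b and 0.25 for ahr2 on the log2 scale, and ahr1b alone of the pair was called. The difference between the pair was not tested. The other receptor gene, ahr1a (ENSDARG00000020046), averaged 0.215 CPM, close to the table's lowest value of 0.144 CPM, which 2445 entries share. Its encoded receptor is known in zebrafish for poor dioxin binding. In the authors' deposited table its log2 fold changes were -1.59 with BaP (95% interval -3.73 to 0.54), -4.17 with diclofenac (-7.23 to -1.12) and -0.97 with the mixture (SE 1.04). Values this close to the lowest level rest on few reads, and without the abundance filter none of these 3 passed (adjusted p = 1, 0.0692 and 0.700, likelihood ratio test), with 0.107%, 9.47% and 8.33% of the 35497 entries called.

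The partners of the receptor come next. Arnt proteins pair with the Ah receptor and also with hypoxia-inducible factors and Sim proteins, and Arnt2 is known mainly from the nervous system. The protein-coding entry of arnt2 (ENSDARG00000103697) had implied levels of 151 CPM with BaP, 142 with diclofenac, 118 with the mixture and 149 in Control. The mixture group was the lowest of the 4. Its log2 fold change in the authors' deposited table was -0.33 with the mixture (95% interval -0.62 to -0.05), which missed the threshold (unadjusted p = 0.0206, adjusted p = 0.102, likelihood ratio test). With BaP and with diclofenac the log2 fold changes in the authors' deposited table were 0.03 (-0.25 to 0.31) and -0.07 (-0.35 to 0.22). The mixture lay 0.36 under BaP on the log2 scale, a difference of -0.36 (-0.64 to -0.08) that missed the threshold as well (Wald test, adjusted p = 0.0668).

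A second arnt2 entry, of the retained-intron class, averaged 4.30 CPM. Transcripts of that class keep an intron and are not annotated to give the full protein. Its log2 fold changes in the authors' deposited table were 0.17, 0.23 and 0.23 with BaP, diclofenac and the mixture, each within its SE of 0.38 to 0.39. The protein-coding and retained-intron entries thus had values of opposite sign with the mixture, and neither passed the test.

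The symbol arnt stands for 2 gene identifiers in the table. Reads that fit both could be split between them, so their separate values are uncertain. The first (ENSDARG00000021855) averaged 4.56 CPM and had implied levels of 4.26 CPM with BaP, 5.93 with diclofenac, 3.44 with the mixture and 4.62 in Control. The second (ENSDARG00000115999) averaged 3.18 CPM, with 3.36 for BaP, 3.22 for diclofenac, 2.50 for the mixture and 3.65 for Control. Both were lowest in the mixture. Their log2 fold changes with the mixture in the authors' deposited table were -0.43 (SE 0.31) and -0.55 (SE 0.40), and neither passed (adjusted p = 0.393 and 0.408, likelihood ratio test). Between the mixture and diclofenac the first identifier differed by -0.79 (95% interval -1.39 to -0.19), a difference that did not pass after adjustment (Wald test, unadjusted p = 0.0102, adjusted p = 0.410). The second differed by -0.36 (-1.15 to 0.42).

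The feedback genes include ahrra, the one member called with BaP. The repressor gene ahrra (ENSDARG00000099702) encodes a relative of the receptor that competes for Arnt and does not activate transcription. Its implied level was 5.37 CPM with BaP, 0.610 with diclofenac, 7.40 with the mixture and 0.722 in Control. The groups given BaP, alone or in the mixture, were high, and the groups without it were low. Both levels without BaP lay under 1 CPM, so ahrra entered the tested set through the groups where it was high. Its fold sizes rest on a low Control level and are uncertain for that reason. Without the abundance filter it also passed with BaP and with the mixture (likelihood ratio test, adjusted p = 4.85e-11 and 8.66e-17). With BaP it rose 7.43-fold, a log2 fold change of 2.89 in the authors' deposited table (SE 0.37, 95% interval 2.16 to 3.62, adjusted p = 2.95e-11, likelihood ratio test). By p-value it stood at rank 7 of the 21622 entries. With the mixture it rose 10.2-fold, a log2 fold change of 3.36 in the authors' deposited table (SE 0.37, 95% interval 2.63 to 4.09, adjusted p = 5.28e-17). There its rank was 70.

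Diclofenac alone left ahrra at a log2 fold change of -0.24 in the authors' deposited table (95% interval -1.18 to 0.69, adjusted p = 0.801). In order of level the groups were mixture, BaP, Control and diclofenac. The mixture differed from BaP by 0.46 (-0.47 to 1.40), which did not pass the approximate test (Wald test, adjusted p = 0.579). Against diclofenac the mixture was higher by 3.60 (2.66 to 4.54, adjusted p = 1.30e-10). The interval for the mixture over BaP is wide and includes a level up to 2.64-fold higher with the mixture. Its width rests on the largest implied SE of the entry, 0.48, which is that of diclofenac against Control. Against Control the SE was 0.37 for BaP and for the mixture. The test assumes equal spread in all groups, which these unequal SEs do not bear out. It therefore cannot decide whether the mixture and BaP differ in ahrra.

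The tiparp gene (ENSDARG00000061841) encodes an ADP-ribosyltransferase that is induced by the receptor and in mammalian cells marks the receptor for lower activity. Its implied level was 55.7 CPM with BaP, 36.7 with diclofenac, 77.8 with the mixture and 37.6 in Control. The order was mixture, BaP, Control and diclofenac, with diclofenac and Control not differing beyond their error, at a log2 fold change of -0.03 in the authors' deposited table (95% interval -0.36 to 0.29). With the mixture tiparp rose 2.07-fold, a log2 fold change of 1.05 in the authors' deposited table (SE 0.16, 95% interval 0.73 to 1.37, adjusted p = 1.31e-08, likelihood ratio test). With BaP alone the log2 fold change was 0.57 in the authors' deposited table (SE 0.16, 95% interval 0.25 to 0.89), at rank 59 of 21622 by p-value. That value had an unadjusted p of 5.03e-04 and did not pass after adjustment (adjusted p = 0.181).

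For tiparp the mixture also exceeded BaP alone, by 0.48 on the log2 scale (95% interval 0.16 to 0.81, Wald test, adjusted p = 0.0265). It was the only one of the 8 tested entries called in that comparison, where 16.4% of all tested entries were called. That count is not a result about the group. Benjamini-Yekutieli adjustment ended the call of tiparp (adjusted p = 0.280). Against diclofenac the mixture was higher by 1.08 (0.76 to 1.41, adjusted p = 8.95e-08), rank 13 of 21622. In that comparison 0.365% of all tested entries were called, and among the members 2 of 8, ahrra and tiparp, both higher.

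A direct comparison of diclofenac with BaP, in which Control cancels, was added after the data had been seen. It called 2 of the 8 entries, both lower with diclofenac, against 19.1% of all tested entries. The count is too small to be a result about the group. The entries called were ahrra at -3.14 (95% interval -4.07 to -2.20, Wald test, adjusted p = 3.81e-09) and tiparp at -0.60 (-0.93 to -0.28, adjusted p = 0.00302). Thus tiparp was higher with BaP than with diclofenac by a called margin, while BaP against Control, at nearly the same size, was not called. The unadjusted p-values were 2.68e-04 and 5.03e-04, and the 2 comparisons had 4138 and 32 calls over the tested entries, which sets how small a p must be to pass.

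**Figure D2:**
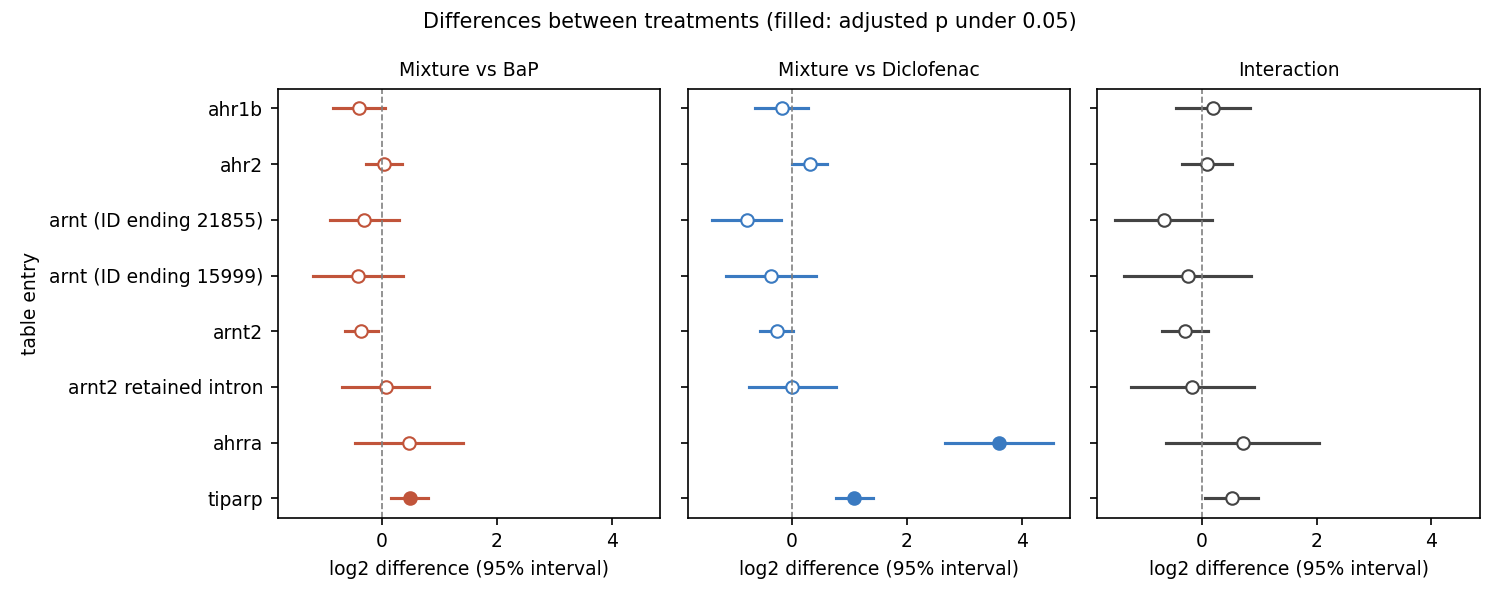
Differences on the log2 scale (x axis) between the mixture and BaP, between the mixture and diclofenac, and for the interaction (the mixture's fold change less those of BaP and diclofenac), with 95% intervals for each tested entry (rows); filled points passed the test. Against diclofenac ahrra stands at 3.60 and tiparp at 1.08, against BaP tiparp alone passed at 0.48, and no entry passed for the interaction.

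The interaction asks whether the effect of both compounds differs from the sum of their separate effects on the log2 scale. It takes the doses in the mixture to be those of the single treatments, which the sources used here do not state. For the members it called 0 of 8, against 0.0462% of all tested entries, and 1 of the 8 had an unadjusted p under 0.05. That was tiparp, at 0.52 (95% interval 0.06 to 0.97, Wald test, unadjusted p = 0.0272, adjusted p = 0.999). For ahrra the interaction was 0.71 (-0.62 to 2.03), for ahr1b 0.19 (-0.45 to 0.84) and for ahr2 0.10 (-0.34 to 0.53), each with adjusted p = 0.999. These intervals are broad. For ahrra the SE was 0.68, and only 10 of the 21622 tested entries were called, so a very small p was needed to pass. Departures from additivity in ahrra of 1 log2 unit, or of the 2.03 at the end of its interval, could go uncalled here.

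**Figure D3:**
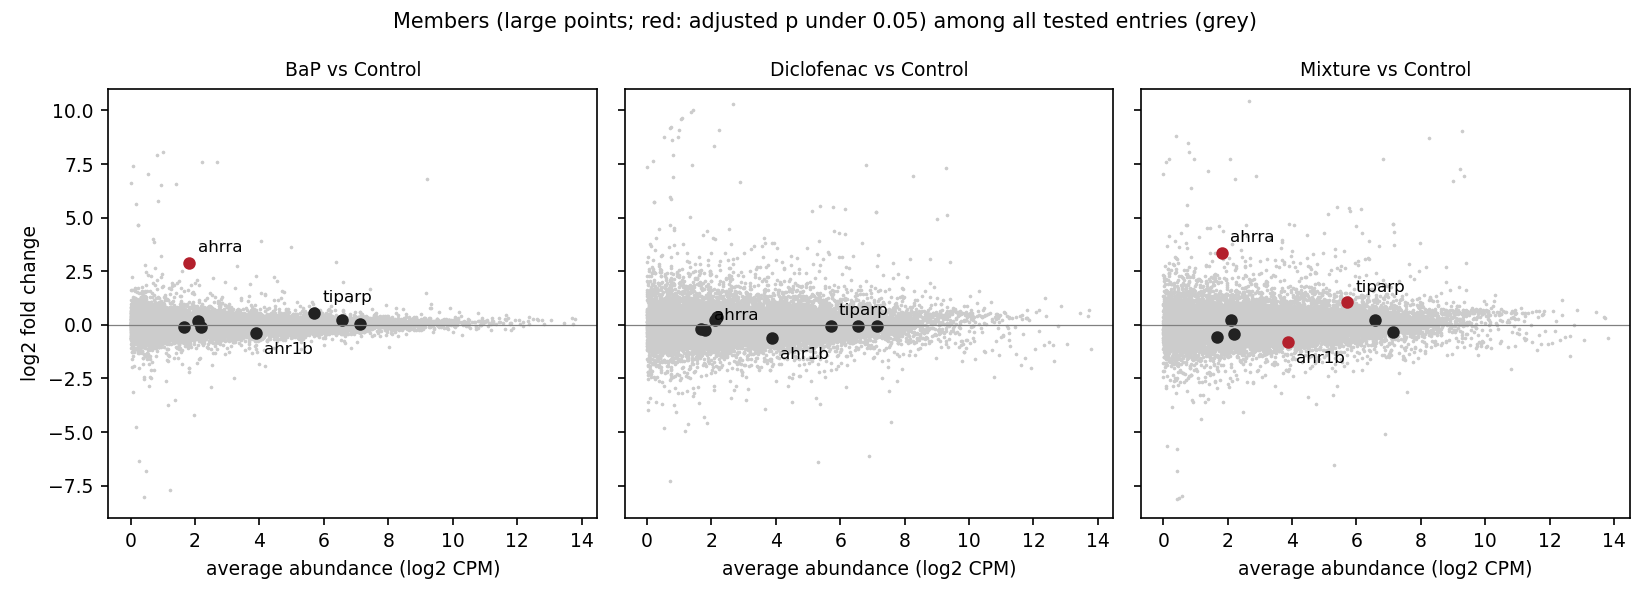
Log2 fold change against Control (y axis) by average abundance in log2 CPM (x axis) for the 21622 tested entries (grey), with the 8 member entries as large points, red where called. With BaP ahrra lies at 2.89, a larger absolute value than 99.9% of the tested entries had. Among the grey points cyp1a, cyp1b1 and cyp1c1 lie farther out there. With the mixture ahrra, tiparp and ahr1b are called, at 3.36, 1.05 and -0.78.

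Over the 8 tested entries the median log2 fold change was 0.10 with BaP, -0.06 with diclofenac and -0.05 with the mixture, beside 0.02, -0.01 and 0.02 over all tested entries. The quartiles over all tested entries were -0.14 and 0.16 with BaP, -0.31 and 0.31 with diclofenac and -0.28 and 0.31 with the mixture. The 3 medians of the members lie within those quartiles. The quartiles are of single entries, so a median over 8 entries can lie within them while some members change. With the mixture 3 of the 8 were called.

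The second repressor gene, ahrrb, appears under 3 gene identifiers, each averaging under 1 CPM (0.354, 0.435 and 0.298). The sources used here do not say whether these are copies of a single locus, and reads could be split among them. With BaP their log2 fold changes in the authors' deposited table were 3.13 (95% interval 0.93 to 5.32) for ENSDARG00000052618, 1.72 (-0.06 to 3.50) for ENSDARG00000116560 and 2.44 (-0.28 to 5.16) for ENSDARG00000111273. All 3 were positive, and without the abundance filter none passed (adjusted p = 0.726, 1 and 1, likelihood ratio test), with 0.107% of the 35497 entries called. With diclofenac the values were 0.37, -1.26 and 1.60 in the authors' deposited table, with intervals that all span 0.

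With the mixture the values of the ahrrb identifiers were 4.15 (95% interval 2.09 to 6.21), 2.97 (1.29 to 4.65) and 1.78 (-1.03 to 4.60) in the authors' deposited table. Without the filter the first and the second passed (adjusted p = 0.00234 and 0.0106), and the third did not (adjusted p = 0.555, likelihood ratio test), with 8.33% of the 35497 entries called. At this abundance a fitted fold change depends on how the authors' model treats counts near 0, so its size is uncertain.

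**Figure D4:**
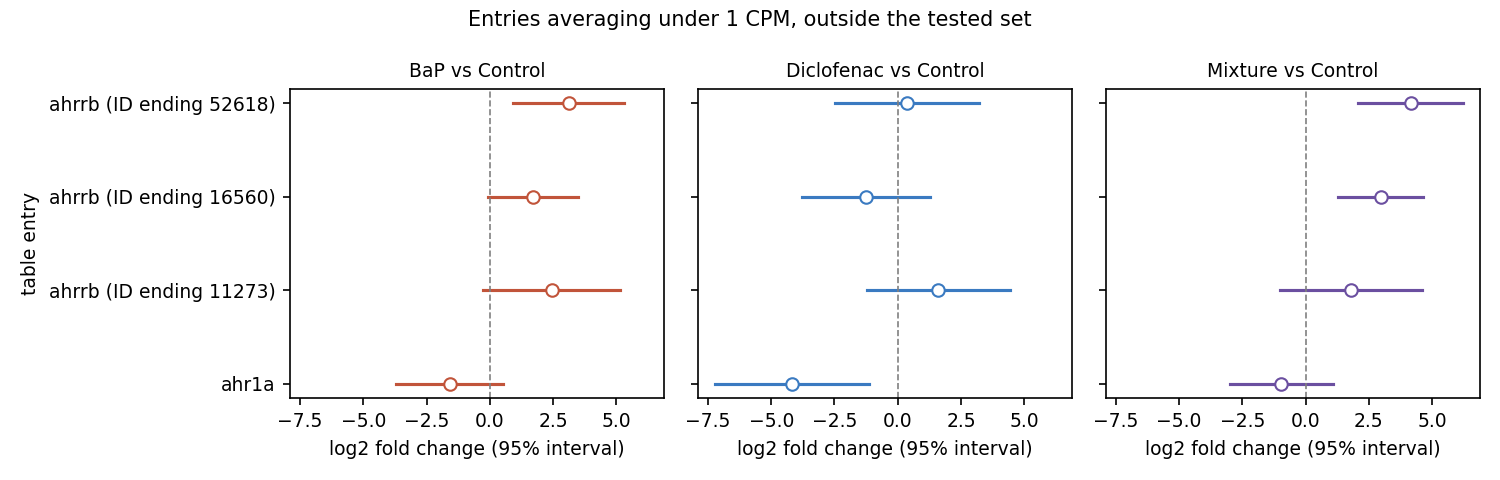
Log2 fold changes against Control (x axis) with 95% intervals for the 4 member entries averaging under 1 CPM (rows), in BaP, diclofenac and mixture libraries. The points of the ahrrb identifiers lie right of 0 with BaP and the mixture. Their intervals are several log2 units wide, and some of them span 0.

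Genes around the receptor were read in 4 lists, with the most abundant entry for each symbol. The lists were chosen with earlier results of these data known, so their counts and medians are a description and not a test. Beside the counts of these lists, 0.148% of all tested entries were called with BaP, 16.2% with diclofenac and 14.8% with the mixture. Of 12 tested Ah receptor target genes other than members, BaP raised 6 and lowered 0 (median log2 fold change 1.73), diclofenac raised 2 and lowered 2 (median -0.05), and the mixture raised 9 and lowered 0 (median 2.26). The cytochrome P450 genes cyp1a, cyp1b1 and cyp1c1, which oxidise aromatic hydrocarbons, had log2 fold changes of 6.80, 3.61 and 2.93 with BaP in the authors' deposited table (likelihood ratio test, adjusted p = 3.68e-99, 3.96e-62 and 4.33e-33). With the mixture they stood at 7.28, 4.27 and 3.91. The entry read for cyp1b1, its most abundant, is of the nonsense-mediated decay class, whose transcripts are marked for degradation, while those of cyp1a and cyp1c1 are protein-coding. With diclofenac cyp1b1 rose by 1.16, and pfkfb3, a regulator of glycolysis, by 1.02, while the forkhead gene foxq1a fell, at -1.14, in the authors' deposited table.

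Of 12 tested Hsp90 and co-chaperone genes, BaP called 0 by the likelihood ratio test (1 at an unadjusted p under 0.05). Diclofenac raised 4 and lowered 1, and the mixture raised 7 and lowered 1. Of all tested entries 0.148%, 16.2% and 14.8% were called with BaP, diclofenac and the mixture. The medians of the list were 0.04, 0.25 and 0.74. With the mixture the Hsp90 gene hsp90aa1.1 in the authors' deposited table rose by 2.01, and the co-chaperone genes stip1 and fkbp4 rose by 0.94 and 0.84. The co-chaperone gene fkbp5, known as a glucocorticoid receptor target, was the one lowered, at -1.59, and is named after its value was seen. With diclofenac hsp90aa1.1 rose by 1.98 and stip1 by 0.60, and fkbp5 stood at -2.41, in the authors' deposited table.

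Of 17 tested bHLH-PAS relatives and coactivators, which include hif1ab, clocka, sim1a and ncoa1, 0 were called with any of the 3 treatments by the likelihood ratio test. At an unadjusted p under 0.05 there were 0 with BaP, 1 with diclofenac and 3 with the mixture. Their log2 fold changes lay between -0.26 and 0.57 with BaP, -0.44 and 0.34 with diclofenac and -0.42 and 1.14 with the mixture. Of all tested entries 0.148%, 16.2% and 14.8% were called with BaP, diclofenac and the mixture. With so few genes, the counts of this list are not a result about it. Another 15 tested genes belong to ADP-ribosylation, namely ADP-ribosyltransferase relatives of tiparp, and macrod1 and macrod2. Among them BaP called 0 by the likelihood ratio test (0 at an unadjusted p under 0.05). Diclofenac raised 1 and lowered 1, and the mixture raised 2 and lowered 2. These counts stand beside the same shares and are too few to be a result about the list. The vault protein gene parp4 rose by 1.22 with diclofenac and by 1.05 with the mixture in the authors' deposited table. The mono-ADP-ribosyltransferase gene parp6b had values of -0.77 with diclofenac and -0.99 with the mixture, both called. The gene macrod2, whose product removes ADP-ribose from proteins, had -0.76 with the mixture, also called.

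**Figure D5:**
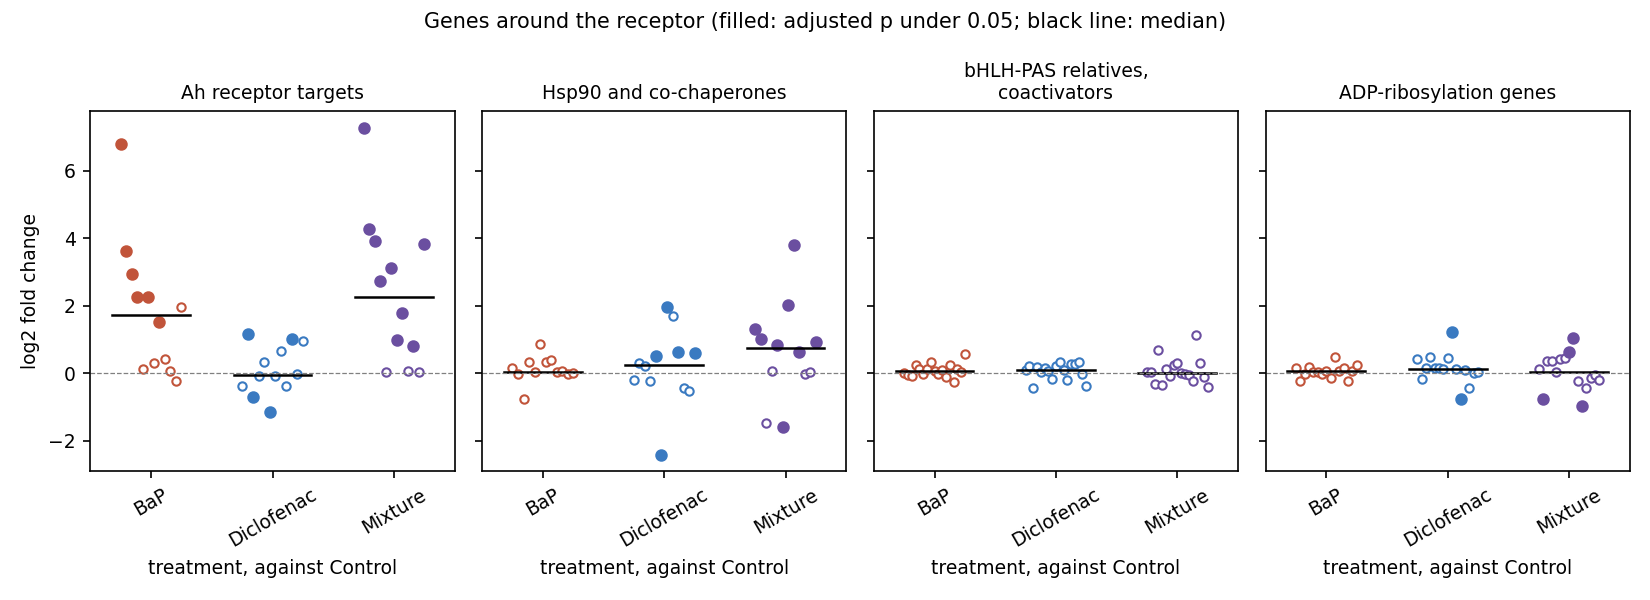
Log2 fold change against Control (y axis) of each tested gene of the 4 lists (panels) by treatment (x axis); filled points passed the test and black lines are medians. Ah receptor targets have medians of 1.73 with BaP, -0.05 with diclofenac and 2.26 with the mixture, and bHLH-PAS relatives have no filled point.

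The genes whose 3 fold changes lay nearest to those of a called member were found by Euclidean distance over the 3 treatments among 19195 symbols. Since the 3 comparisons share Control, this likeness is a description. Nearest to ahrra were cyp1c1 at a distance of 0.73 log2 units, cyp1c2 at 0.89 and foxq1a at 1.13. Their log2 fold changes with BaP were 2.93, 2.27 and 2.25 in the authors' deposited table, all called, and with the mixture 3.91, 2.73 and 3.13. With diclofenac they were -0.72, -0.10 and -1.14. There cyp1c1 and foxq1a were called lower (likelihood ratio test, adjusted p = 0.0182 and 2.48e-04), and ahrra was not called, at -0.24. Unlike ahrra, cyp1c1 and foxq1a also passed the interaction test, at 1.70 and 2.02 (Wald test, adjusted p = 0.00245 and 2.86e-04), though whether they differ from ahrra in this was not tested. Nearest to tiparp were ccn2b, haus1 and rad51b at 0.14, 0.19 and 0.20, none of them called with BaP and the first pair called with the mixture. Nearest to ahr1b were si:ch211-236g6.1, sytl1 and si:dkey-42p14.3 at 0.04, 0.06 and 0.07, none of them called with any treatment.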

How the data were processed

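Whole-body zebrafish RNA from 12 libraries, 3 in each of 4 groups taken from the labels, was analysed through the authors' comparison table. Replicates are already combined in it. Per the submitters' processing notes the tools were kallisto, edgeR and limma and the build was GRCz11, with no versions or roles. The sources used here do not state filters or library scaling.

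Per the file headers, the deposited fold changes set each treatment against Control on a log scale. Its base was taken to be 2 (log2), as for the deposited average log2 CPM, which raised from base 2 sums to 1.01e+06. The sum bears on the base of the average, and that of the fold changes is assumed to be the same. That average is identical in its 3 columns for all 35497 entries. The likelihood ratio is the authors' test score, and the deposited p-value is its chi-square tail on 1 degree of freedom (largest relative difference 9.86e-13), so it is unadjusted. The p-values thus depend on how the authors modelled the spread among 3 libraries of a group. A limit of 1.5 for log fold changes stands in the authors' column descriptions.

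The p-values were adjusted by Benjamini-Hochberg over the 21622 entries of at least 1 CPM, two-sided, with Python 3.11.15 and statsmodels 0.14.6. The variance of a fold change was implied as its square over the likelihood ratio. Differences between treatments used an entry's largest implied variance of 3, doubled for the interaction, in a Wald test that assumes equal spread in all groups. The functions were run on simulated data with a known spread, the same for every gene. There no gene responded to both BaP and the mixture, so that run does not cover members such as ahrra. Implied group levels scale the average CPM by the fold changes, and their totals ran between 970190 and 1.04e+06.

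The 8 members and the 4 lists were chosen with earlier results of these data known. A further gene of the group is not reported here. Named genes were all members, up to 3 called genes per list and treatment by p, and the 3 nearest symbols to each called member. List genes matched by symbol numbered 12 of 14 receptor targets, 13 of 13 chaperones, 17 of 20 bHLH-PAS genes and 16 of 19 ADP-ribosylation genes. Alternatives were no abundance filter, at least 5 CPM, the 1.5 limit, Benjamini-Yekutieli adjustment, protein-coding entries, 1 entry per symbol, median-centred fold changes and the median variance. Count models and leaving out replicates need values per library and were not run.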

Additional observations from a re-analysis of the deposited data

Results flagged for a closer look

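Member entries under 1 CPM lay outside the tested set, and 2 of them showed a signal above Control. With the mixture the ahrrb identifiers ENSDARG00000052618 and ENSDARG00000116560 had log2 values of 4.15 and 2.97 in the authors' deposited table (likelihood ratio test, adjusted p = 0.00234 and 0.0106 over all 35497 entries). They averaged 0.354 and 0.435 CPM, where the lowest value of the table is 0.144 CPM. Without the abundance filter 8.33% of the 35497 entries were called with the mixture. The remaining ahrrb identifier, ENSDARG00000111273, had 1.78 and did not pass (adjusted p = 0.555).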

How the results depend on the processing

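With a filter of 5 CPM, which removes ahrra and 4 tested entries in all, the number of members called was 0 for BaP, 1 for diclofenac (ahr1b), 1 for the mixture against diclofenac and 1 for diclofenac against BaP. Over the 14795 entries of that filter BaP called 23 and diclofenac 2941. With so few members, the count for diclofenac there is not a result about the group. Without an abundance filter the mixture called 5, with ahrrb added under 2 identifiers, against 8.33% of the 35497 entries. At a log2 fold change of at least 1.5 the mixture called 1, the mixture against BaP 0, the mixture against diclofenac 1 and diclofenac against BaP 1. At that limit BaP called 1 member and 24 of the 21622 entries, and diclofenac 0 members and 666 entries. Benjamini-Yekutieli adjustment gave 0 for the mixture against BaP. Shares over all entries are not given here for the other comparisons under these alternatives. With so few members, their counts are not a result about the group. Median-centring turned the sign of 1 uncalled value near 0, that of the arnt2 retained intron for the mixture against diclofenac, to -0.019. The calls of ahrra kept their side in every alternative that held it. Of 375 recomputed member values, 366 kept direction and side of the threshold. That count says little about robustness, since only median-centring alters a fold change and most of the values were uncalled at the outset. Each call of tiparp and of ahr1b was lost at the limit of 1.5. No paired analysis was possible because the deposited table holds no value per replicate. Leaving out replicates and DESeq2 with its size factors were not run for the same reason. Depth is known only as the range in the labels, so the precision of the entries under 1 CPM cannot be stated from read numbers.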
